A study of Mus musculus with 4 samples.

Results

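Genes of purinergic and adenosine signalling were examined in bone marrow-derived macrophages that had been cocultured with colon carcinoma cells. The set was chosen by gene symbol from the deposited read count table and held 10 of its 21878 genes. These were the ATP-gated channels P2rx4 and P2rx7, the P2Y receptors P2ry6, P2ry12 and P2ry14, the ectonucleotidases Entpd1 (CD39) and Nt5e (CD73), and the adenosine receptors Adora2a, Adora2b and Adora3. All 10 passed the filter on low counts, which left 12494 genes for testing.

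The series held 4 RNA-seq libraries, 2 with the label WT and 2 with the label anti-Act1, the latter from mice with a macrophage-specific knockdown of Act1 (gene symbol Traf3ip2), an adaptor of the IL-17 receptor. All mice were C57BL/6 and, per the labels, 8 weeks old. Macrophages of both genotypes were grown from bone marrow with M-CSF, shared the wells with MC38, a mouse colon carcinoma line held in transwell inserts, and were harvested after 48 hours per the labels, whereas the study's text gives a shorter coculture. The comparison addressed how loss of Act1 in macrophages alters their transcripts when tumour cells are near. The sources used here do not name the promoter that drives the knockdown, nor the number of mice behind a library. The study calls its libraries biological replicates, but the labels do not tie each to an animal. The p-values weigh the group difference against the spread between libraries of the same group, which may be technical in part. No arm without tumour cells was analysed here.

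Cells under stress or damage release ATP and other nucleotides, which act on P2X channels and P2Y receptors of nearby macrophages. On the cell surface CD39 removes phosphates from ATP and ADP to leave AMP, and CD73 turns AMP into adenosine. Adenosine then acts on its own receptors, of which both A2 types raise cyclic AMP and dampen many inflammatory responses of macrophages, whereas the A3 type couples to the inhibitory G protein. In tumours this route from ATP to adenosine is known as a brake on immune cells.

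The libraries held 55435063 to 75062945 counts, and both WT libraries were deeper than both anti-Act1 libraries. A count of 0 allows up to 3 counts, which is 0.0395 to 0.0549 CPM (counts scaled to library size) in the libraries, for counting error alone. The study reports a marked drop of Act1 expression in bone marrow-derived macrophages from anti-Act1 mice, measured apart from these libraries. In the libraries Traf3ip2, the targeted gene, stood at 6.98 and 7.54 CPM in WT replicates 1 and 2. It stood at 9.63 and 7.84 CPM in anti-Act1 replicates 1 and 2. No fall of its transcript was thus seen under the anti-Act1 label (log2 fold change 0.27 ± 0.12 (SE), edgeR adjusted p = 0.117), and it passed the threshold as higher once anti-Act1 replicate 2 was left out (0.41, edgeR adjusted p = 0.0343). The 4 Y-linked genes examined summed to 228 to 246 CPM in the WT libraries and to 0 to 0.0162 CPM in the anti-Act1 libraries, so that the sex of the mice and the genotype cannot be told apart in any result below. All 12 macrophage markers were detected, with a summed level of 25440 to 26396 CPM in WT and 26078 to 26898 CPM in anti-Act1. Of these 12 markers 6 were lower and 1 was higher in anti-Act1, Mrc1 among the lower at a log2 fold change of -0.63. Of 10 epithelial markers 5 were at 0 in every library, and the list summed to at most 0.898 CPM. In bulk RNA, fewer cells of a type and less RNA per cell cannot be told apart.

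Promoter windows of the genes on which the results turn are printed to show the start regions of genes that fell (P2rx7, P2ry12 and P2ry13, a neighbour of P2ry12) and of genes that rose (Nt5e and Adora2b). They come from RefSeq (GRCm38.p6), run from 250 bases before to 50 after the annotated start in the direction of transcription, and were found for 8 of the 10 genes. Capitals mark matches on either strand to 7 motifs, namely the NF-κB site, the STAT site TTCNNNGAA (GAS), the interferon element ISRE, the AP-1 site TGANTCA, the cyclic AMP element TGACGTCA (CRE), the hypoxia response core ACGTG and the ETS core GAGGAA.
P2rx7, chr5:122643677-122643976, plus strand: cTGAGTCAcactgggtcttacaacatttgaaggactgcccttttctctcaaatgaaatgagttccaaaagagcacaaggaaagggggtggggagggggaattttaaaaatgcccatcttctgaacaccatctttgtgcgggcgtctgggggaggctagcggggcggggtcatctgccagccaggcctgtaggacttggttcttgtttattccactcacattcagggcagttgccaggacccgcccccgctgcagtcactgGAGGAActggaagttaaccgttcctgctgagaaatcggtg
P2ry12, chr3:59262936-59263235, minus strand: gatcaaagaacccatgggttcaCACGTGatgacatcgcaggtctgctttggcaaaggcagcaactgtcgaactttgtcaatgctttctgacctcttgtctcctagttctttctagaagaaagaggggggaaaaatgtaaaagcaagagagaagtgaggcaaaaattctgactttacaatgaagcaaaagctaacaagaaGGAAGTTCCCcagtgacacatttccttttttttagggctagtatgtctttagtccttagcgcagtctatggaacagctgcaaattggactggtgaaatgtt
P2ry13, chr3:59210833-59211132, minus strand: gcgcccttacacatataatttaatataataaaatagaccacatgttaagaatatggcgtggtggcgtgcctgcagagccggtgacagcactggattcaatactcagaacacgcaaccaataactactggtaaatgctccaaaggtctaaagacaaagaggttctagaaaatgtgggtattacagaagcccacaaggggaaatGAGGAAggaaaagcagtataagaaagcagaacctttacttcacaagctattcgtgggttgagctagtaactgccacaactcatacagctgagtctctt
Nt5e, chr9:88327359-88327658, plus strand: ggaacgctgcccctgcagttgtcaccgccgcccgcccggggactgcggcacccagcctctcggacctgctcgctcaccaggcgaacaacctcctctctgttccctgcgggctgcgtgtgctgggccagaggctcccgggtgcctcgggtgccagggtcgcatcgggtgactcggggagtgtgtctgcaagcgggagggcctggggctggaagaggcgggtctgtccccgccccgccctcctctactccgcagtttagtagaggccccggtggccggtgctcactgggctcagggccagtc
Adora2b, chr11:62248734-62249033, plus strand: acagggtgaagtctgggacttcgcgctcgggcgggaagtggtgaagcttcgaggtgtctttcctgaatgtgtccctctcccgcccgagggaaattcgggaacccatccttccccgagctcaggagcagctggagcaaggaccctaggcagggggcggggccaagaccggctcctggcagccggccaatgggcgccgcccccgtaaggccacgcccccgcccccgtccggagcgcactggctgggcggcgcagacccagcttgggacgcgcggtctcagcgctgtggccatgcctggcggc

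The P2rx7 window printed, the first of 2 in RefSeq, held an AP-1 match near its far end and an ETS core at position 11, counted from 1 at the annotated start. The other P2rx7 window (chr5:122650133-122650432) held an ETS core and no AP-1 match. The P2ry12 window held an NF-κB match at position -51, and the hypoxia core at -228 and -227, where the matches on the 2 strands overlap. The RefSeq start of P2ry12 lies upstream of the span GENCODE gives the gene, so these positions depend on the start chosen. P2ry13 had a single ETS core, at position -48, and the Nt5e and Adora2b windows had no match to any of the 7 motifs. Of the genes with windows but none printed, Entpd1 alone was called, and whether matches go with the direction of change was not tested. Entpd1, which fell, had no match in the first of its 2 windows and only ETS cores in the other. P2ry14 and Adora3, which were not called, had AP-1 and ETS matches, and P2rx4, also not called, had none. Among all 32817 windows of this length the NF-κB site was present in 8.46%, GAS in 8.29%, ISRE in 3.43%, AP-1 in 7.81%, CRE in 1.79%, the hypoxia core in 19.6% and the ETS core in 28.3%. The windows also differed in base composition. Nt5e and Adora2b held 23 and 27 CpG sites at 71.0% and 70.0% GC, against 8, 4 and 6 CpG sites for P2rx7, P2ry12 and P2ry13 and a median of 7 CpG sites and 52.7% GC over all windows. This did not follow the direction of change, since Entpd1, which fell, had 23 CpG sites at 64.0% GC in the first of its 2 windows and 10 CpG sites in the other. Such matches describe letters and were not tested as binding sites.

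Of the 10 genes 3 rose in anti-Act1 macrophages (Nt5e, Adora2a and Adora2b), 4 fell (P2rx7, P2ry6, P2ry12 and Entpd1), and 3 did not pass the test (P2rx4, P2ry14 and Adora3). Over all genes tested, 20.7% passed an adjusted p under 0.05 in edgeR's quasi-likelihood test, 10.9% higher and 9.76% lower in anti-Act1. The CPM of the groups did not overlap for 9 of the 10 genes, 4 higher and 5 lower, where 57.1% of all genes tested had groups that did not overlap, 28.4% higher and 28.7% lower. The 10 genes had a median log2 fold change of -0.13, against -0.00 over all genes tested. For any 1 gene, exact permutation of 2 against 2 libraries cannot give a p below 0.333, so each call rests on the fit across all genes.

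**Figure D1:**
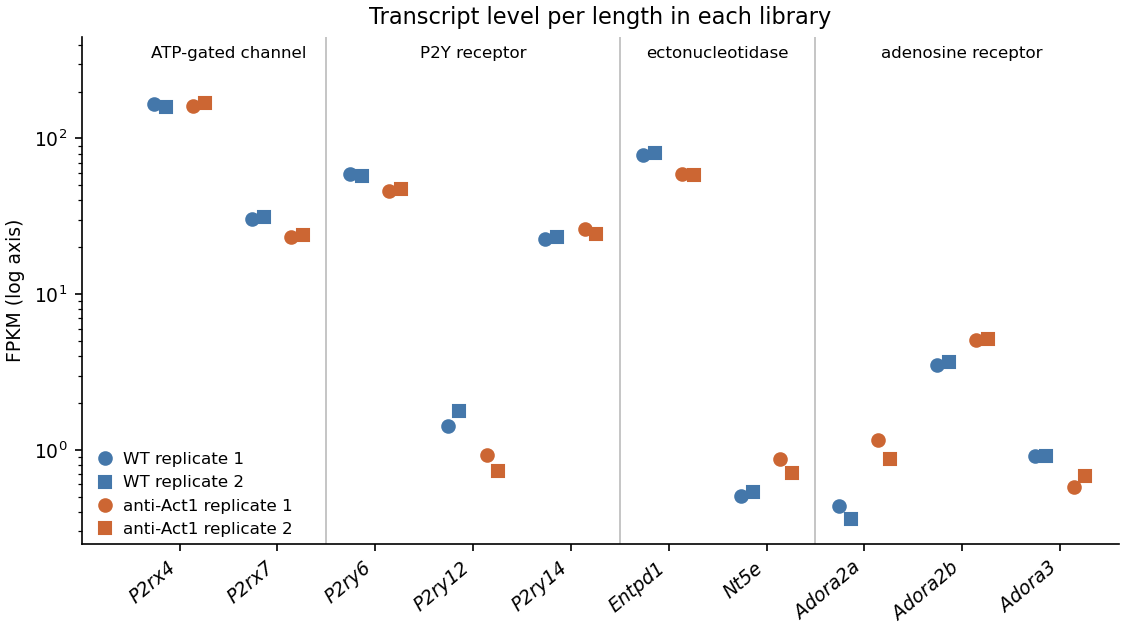
Transcript level per length (FPKM, log axis) of the 10 genes in each of the 4 libraries, ordered by role, with WT libraries in blue and anti-Act1 libraries in orange (circle, replicate 1, square, replicate 2). The groups overlap only for P2rx4, and Adora2a shows the widest gap, from 0.362 and 0.436 FPKM in WT to 0.873 and 1.15 FPKM in anti-Act1.

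P2rx4 and P2rx7 encode channels that open on binding ATP. They lie next to each other on chromosome 5, 16.1 kb apart on the same strand (P2rx7 at chr5:122643911-122691432 and P2rx4 at chr5:122707544-122729738, GRCm38, GENCODE M21). P2rx7, the channel that high ATP opens and that is known for driving inflammasome activation and release of IL-1β, had 89.1 and 91.3 CPM in WT and 68.9 and 71.5 CPM in anti-Act1. Both anti-Act1 libraries thus lay below both WT libraries. The level fell from 90.2 ± 1.56 to 70.2 ± 1.79 CPM (SD, n = 2), which is -0.36 ± 0.06 (SE) on the log2 scale with an edgeR adjusted p = 1.50e-06, and the call held under all 13 alternative settings. P2rx4, which responds to lower ATP, had 438 and 417 CPM in WT and 425 and 452 CPM in anti-Act1, and these values overlapped. The difference was 0.04 ± 0.05 (SE) on the log2 scale (edgeR adjusted p = 0.695), with a 95% interval of the change from -4.56% to 10.1%. Per length, P2rx7 reached 0.182 and 0.196 of the P2rx4 level in WT and 0.145 and 0.142 in anti-Act1, on the scale of FPKM (fragments scaled to gene length and library size). The 2 anti-Act1 ratios were below both WT ratios.

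The P2Y receptors are coupled to G proteins, P2ry6 as a receptor for UDP, P2ry12 for ADP and P2ry14 for UDP-glucose. P2ry6 (chr7:100937630-100974649, minus strand) had 112 and 108 CPM in WT against 88.3 and 91.5 CPM in anti-Act1. No anti-Act1 library reached the lower WT library. P2ry6 fell by 18.3% (log2 fold change -0.29 ± 0.05 (SE), edgeR adjusted p = 4.27e-05).

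P2ry12 (chr3:59216272-59262871, minus strand), best known from platelets and microglia, was far less abundant. It had 217 and 318 counts in WT and 137 and 96 counts in anti-Act1, or 3.36 and 4.19 CPM against 2.22 and 1.76 CPM. The groups did not overlap, although replicates of a group differed more than for the abundant receptors. The level fell 1.90-fold (log2 fold change -0.92 ± 0.19 (SE), edgeR adjusted p = 0.000223), and the change lay between -0.75 and -1.10 when any 1 library was left out. On log2(FPKM + 1) without a filter, a scale that shrinks changes of low genes, it just missed the threshold (limma adjusted p = 0.0513). Of 6 megakaryocyte and platelet markers, Pf4 had 569 and 539 CPM in WT and 470 and 454 CPM in anti-Act1. It fell by 0.26 on the log2 scale (edgeR adjusted p = 7.61e-05). Each other marker of this list reached at most 3.37 CPM in any library. The summed level was 547 to 575 CPM in WT and 460 to 475 CPM in anti-Act1. This sum was nearly all Pf4, so it cannot be read as a level of platelets. Ppbp, another platelet marker, had 2.66 and 2.91 CPM in WT and 1.31 and 1.76 CPM in anti-Act1 and fell by 0.87 on the log2 scale (edgeR adjusted p = 0.00245), close to the size of the P2ry12 fall. Gp9 and Itga2b stood at -1.36 and -0.61 and did not pass the test (edgeR adjusted p = 0.151 and 0.162). None of the 6 was at 0 in every library, and the part of these transcripts in the P2ry12 result was not tested.

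P2ry14 (chr3:59113855-59153618, minus strand) lies in the same cluster on chromosome 3, 62.7 kb from P2ry12. It had 40.9 and 42.0 CPM in WT and 47.9 and 44.9 CPM in anti-Act1. Both anti-Act1 libraries were above both WT libraries, but the difference of 12.1% did not pass the test (log2 fold change 0.16 ± 0.06 (SE), edgeR adjusted p = 0.0554). With a filter of 10 counts in every library in place of edgeR's own filter it did (edgeR adjusted p = 0.0491). Within the library, P2ry12 per length was 0.0632 and 0.0768 of P2ry14 in WT and 0.0356 and 0.0301 in anti-Act1, on the FPKM scale.

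CD39 and CD73 act in turn on the cell surface, and their transcripts moved in opposite directions. Entpd1 (chr19:40612366-40741602, plus strand), which encodes CD39, had 328 and 338 CPM in WT and 250.1 and 249 CPM in anti-Act1. The 2 libraries of each group lay close together and the groups far apart relative to that spread. Entpd1 fell by 25.1% (log2 fold change -0.42 ± 0.05 (SE), edgeR adjusted p = 7.39e-09), the smallest adjusted p of the 10 genes, and it was called under all 13 alternatives.

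Nt5e (chr9:88327197-88372092, plus strand), which encodes CD73, was low throughout, with 117 and 145 counts in WT and 195 and 142 counts in anti-Act1. This gave 1.81 and 1.91 CPM in WT and 3.16 and 2.60 CPM in anti-Act1, with no overlap. The rise was 1.55-fold (log2 fold change 0.63 ± 0.21 (SE), edgeR adjusted p = 0.0226). This call was the least firm of the 7. It was lost with DESeq2 (adjusted p = 0.108), which called 16.6% of the genes it tested, on log2(FPKM + 1) without a filter (limma adjusted p = 0.0826), and in edgeR without WT replicate 1 (adjusted p = 0.0892), WT replicate 2 (0.0632) or anti-Act1 replicate 1 (0.246). Among 7 fibroblast markers, of a cell type that carries much CD73, the summed level was 1.33 to 1.58 CPM in WT and 1.89 to 2.19 CPM in anti-Act1. Most of that sum was Pdgfrb, the only marker of this list high enough for the test, which it did not pass (log2 fold change 0.54, edgeR adjusted p = 0.156). Lum was at 0 in every library, and the rest reached at most 0.139 CPM in any library. Of these Dcn, Col1a2 and Pdgfra had a lower mean in anti-Act1, Col1a1 and Col3a1 a higher one. The part of such cells in the Nt5e result was not tested.

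Because Entpd1 exceeded Nt5e by far in every library, the summed transcript of these 2 enzymes remained almost wholly CD39. Other ectoenzymes, given below, are not part of this comparison. The ratio of Entpd1 to Nt5e in FPKM was 154 and 150.4 in WT and 67.3 and 81.5 in anti-Act1. The mean ratio was 2.05-fold lower in anti-Act1, and the groups did not overlap. Summed over both enzymes the level was 79.0 and 81.7 FPKM in WT and 60.1 and 59.0 FPKM in anti-Act1.

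**Figure D2:**
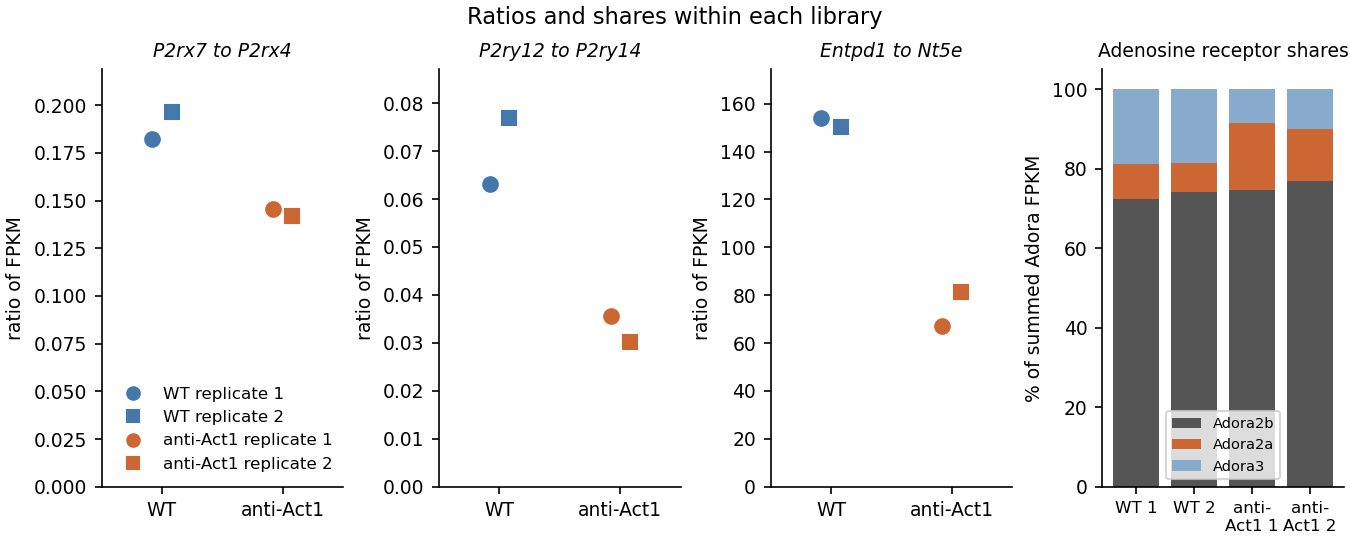
Ratios of FPKM within each library for P2rx7 to P2rx4, P2ry12 to P2ry14 and Entpd1 to Nt5e (points, 1 per library), and the shares of Adora2b, Adora2a and Adora3 in the summed adenosine receptor FPKM in percent (stacked bars, 1 per library). Each ratio is lower in both anti-Act1 libraries, and the Adora2a share is higher there, at 16.9% and 12.98% against 8.95% and 7.31%.

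Among the adenosine receptors the A2 types rose. Adora2a (chr10:75316877-75334784, plus strand) encodes the A2 receptor of high affinity. It had 70 and 68 counts in WT and 178 and 121 counts in anti-Act1, or 1.08 and 0.896 CPM against 2.88 and 2.22 CPM. The lower anti-Act1 library was thus above both WT libraries. This was the largest change of the set at 2.59-fold (log2 fold change 1.37 ± 0.25 (SE), 95% interval 0.87 to 1.87, edgeR adjusted p = 2.76e-05). The change stayed between 1.17 and 1.55 when any 1 library was left out.

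Adora2b (chr11:62248984-62266453, plus strand), the A2 receptor of low affinity, responds to higher adenosine. It had 6.45 and 6.71 CPM in WT and 9.41 and 9.69 CPM in anti-Act1. The 2 libraries of each group again lay close together. Adora2b rose 1.45-fold (log2 fold change 0.54 ± 0.12 (SE), edgeR adjusted p = 0.000491) and was called under all 13 alternatives.

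Adora3 (chr3:105870858-105908926, plus strand), the A3 receptor, had 139 and 163 counts in WT and 85 and 89 counts in anti-Act1. This gave 2.15 CPM in each WT library and 1.38 and 1.63 CPM in anti-Act1, without overlap. The log2 fold change of -0.52 ± 0.23 (SE) did not pass the test (edgeR adjusted p = 0.111), nor did it under any of the 11 alternatives that gave a value (adjusted p from 0.0616 to 0.426). In the annotation Adora3 shares 20.9% of its exon bases with Tmigd3, which had 20 and 35 counts in WT and 23 and 26 counts in anti-Act1, so that reads in the shared part are uncertain. Transcripts typical of mast cells and basophils, which carry much Adora3, summed to 0.913 to 1.13 CPM in WT and 0.385 to 0.551 CPM in anti-Act1. Most of that sum was Kit, the only marker of this list high enough for the test, which it did not pass (log2 fold change -0.80, edgeR adjusted p = 0.202). Of those 8 markers Fcer1a, Tpsb2 and Mcpt4 were at 0 in every library, and the part of such cells in the Adora3 values was not tested.

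Adora2b made up most of the adenosine receptor transcript per length in every library, with 72.3% and 74.2% of the summed FPKM in WT and 74.6% and 77.0% in anti-Act1. The share of Adora2a was 8.95% and 7.31% in WT and 16.9% and 12.98% in anti-Act1. That of Adora3 was 18.7% and 18.5% in WT and 8.49% and 10.1% in anti-Act1. The order of Adora2a and Adora3 was thus opposite in the 2 groups. The summed level of the receptors was 4.87 and 4.96 FPKM in WT and 6.82 and 6.72 FPKM in anti-Act1, and Adora1 had 0 counts in every library.

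**Figure D3:**
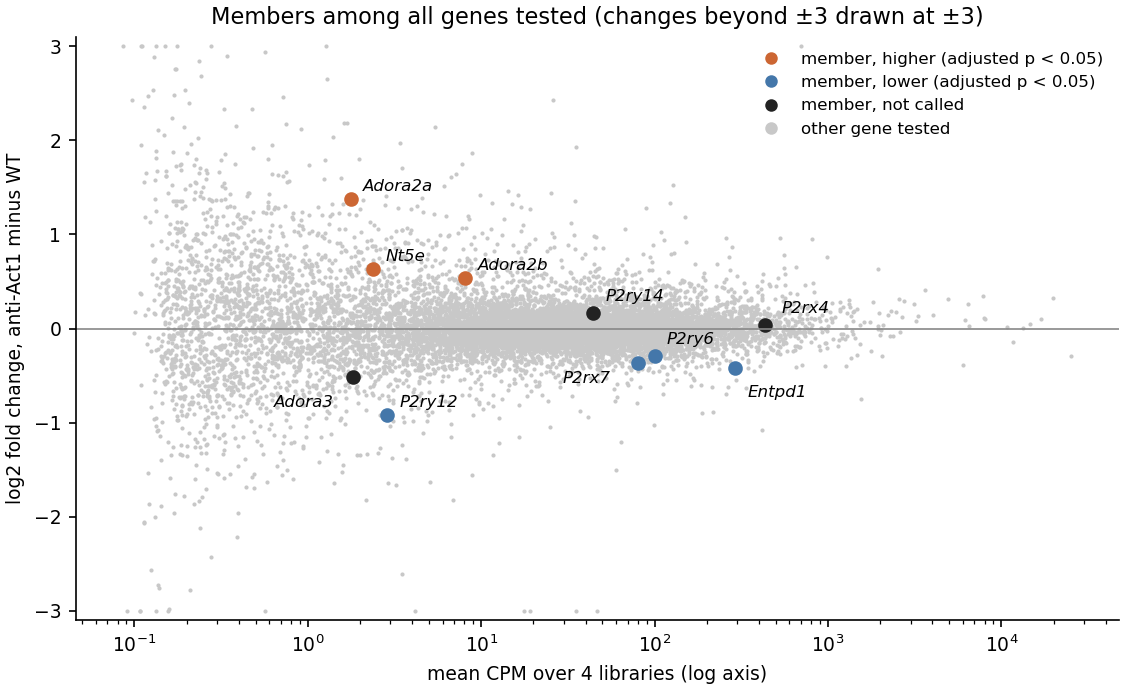
Log2 fold change (anti-Act1 minus WT) against the mean CPM over the 4 libraries (log axis) for all 12494 genes tested in grey, with the 10 genes in orange (higher), blue (lower) or black (not called), and changes beyond 3 in size drawn at 3. Adora2a at 1.37 and P2ry12 at -0.92 lie farthest from 0 among the 10, and P2rx4 at 0.04 lies nearest.

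Per length, the order of the transcripts in WT from high to low was P2rx4, Entpd1, P2ry6, P2rx7, P2ry14, Adora2b, P2ry12, Adora3, Nt5e and Adora2a, and no neighbours in it overlapped between libraries. P2rx4 stood at 160 to 169 FPKM over all libraries, Entpd1 at 58.3 to 81.2 FPKM and Adora2b at 3.52 to 5.17 FPKM. In anti-Act1 P2ry14 (26.1 and 24.2 FPKM) stood above P2rx7 (23.4 and 23.9 FPKM), which it followed in WT. Adora2a moved from the lowest place, at 0.436 and 0.362 FPKM, to 1.15 and 0.873 FPKM, where it overlapped P2ry12 at 0.931 and 0.729 FPKM. P2ry12 in turn overlapped Nt5e, and Adora3 was the lowest at 0.579 and 0.677 FPKM. The order of these overlapping transcripts in anti-Act1 did not exceed the spread between libraries.

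The wider pathway was taken from lists of 55 other genes that sense, release, degrade or carry nucleotides and nucleosides. Of these 53 were in the table and 36 were tested, of which 7 were higher, 5 were lower and 24 did not pass the test. The background shares were 10.9% higher and 9.76% lower, and the median log2 fold change of the 36 was 0.04 against -0.00 over all genes.

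Of 4 other P2Y receptors tested 1 rose and 1 fell. P2ry2, a receptor for ATP and UTP, had 37.8 and 34.2 CPM in WT and 45.9 and 49.8 CPM in anti-Act1 (log2 fold change 0.41 ± 0.07 (SE), edgeR adjusted p = 3.48e-06). P2ry13, like P2ry12 a receptor for ADP, had 5.94 and 6.50 CPM in WT and 3.50 and 3.30 CPM in anti-Act1 (-0.87 ± 0.15 (SE), edgeR adjusted p = 8.44e-06). P2ry1, the remaining ADP receptor, had 2.09 CPM in each WT library and 2.46 and 2.45 CPM in anti-Act1 and did not pass the test (edgeR adjusted p = 0.491). None of the 4 other P2X channels tested passed, and their summed level was at most 0.939 CPM.

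Of 9 other nucleotide-degrading ectoenzymes tested 3 rose and 1 fell. Cd38, which breaks down NAD, had 5.82 and 6.40 CPM in WT and 11.98 and 12.1 CPM in anti-Act1 (log2 fold change 0.97 ± 0.11 (SE), edgeR adjusted p = 2.56e-09). Its relative Bst1 (CD157) had 45.6 and 47.6 CPM in WT and 65.5 and 67.5 CPM in anti-Act1 (0.51 ± 0.06 (SE), edgeR adjusted p = 2.48e-09). Acpp, a phosphatase that can also form adenosine from AMP, had 46.4 and 49.7 CPM in WT and 74.7 and 74.1 CPM in anti-Act1 (0.63 ± 0.06 (SE), edgeR adjusted p = 6.48e-12). Both groups of libraries lay apart for each of these enzymes, and each call held under all 13 alternatives. Enpp1, which splits ATP into AMP and pyrophosphate, had 13.3 and 14.5 CPM in WT and 9.86 and 9.93 CPM in anti-Act1 and fell (-0.49 ± 0.10 (SE), edgeR adjusted p = 0.000137), a call lost on log2(FPKM + 1) without a filter (limma adjusted p = 0.0564).

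Of 10 adenosine-handling enzymes tested 1 rose and 2 fell. Ada, which deaminates adenosine to inosine, had 97 and 87 counts in WT and 39 and 40 counts in anti-Act1, with both anti-Act1 libraries below both WT libraries. The fall (log2 fold change -0.95 ± 0.33 (SE), edgeR adjusted p = 0.0321) was lost under 5 of the 11 alternatives that gave a value. Pnp, which acts on inosine, was 0.19 higher on the log2 scale (edgeR adjusted p = 0.00662), and Nt5c2, a nucleotidase inside the cell, stood at -0.23 (edgeR adjusted p = 0.00594). The Pnp call was lost on log2(FPKM + 1) without a filter and without WT replicate 2 or anti-Act1 replicate 2 (adjusted p up to 0.116 in these fits by limma and edgeR), and that of Nt5c2 on the same scale and without anti-Act1 replicate 1 (up to 0.340). Adk, which turns adenosine back into AMP, did not pass the test (log2 fold change -0.13, edgeR adjusted p = 0.205). Of the nucleoside transporters Slc28a2 stood at 0.19 (edgeR adjusted p = 0.00975) and Slc29a3 at -0.15 (edgeR adjusted p = 0.0411), and of the release channels Panx1 stood at 0.30 (edgeR adjusted p = 0.0352). Each of these 3 calls was lost under 6 or more of the 13 alternatives.

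**Figure D4:**
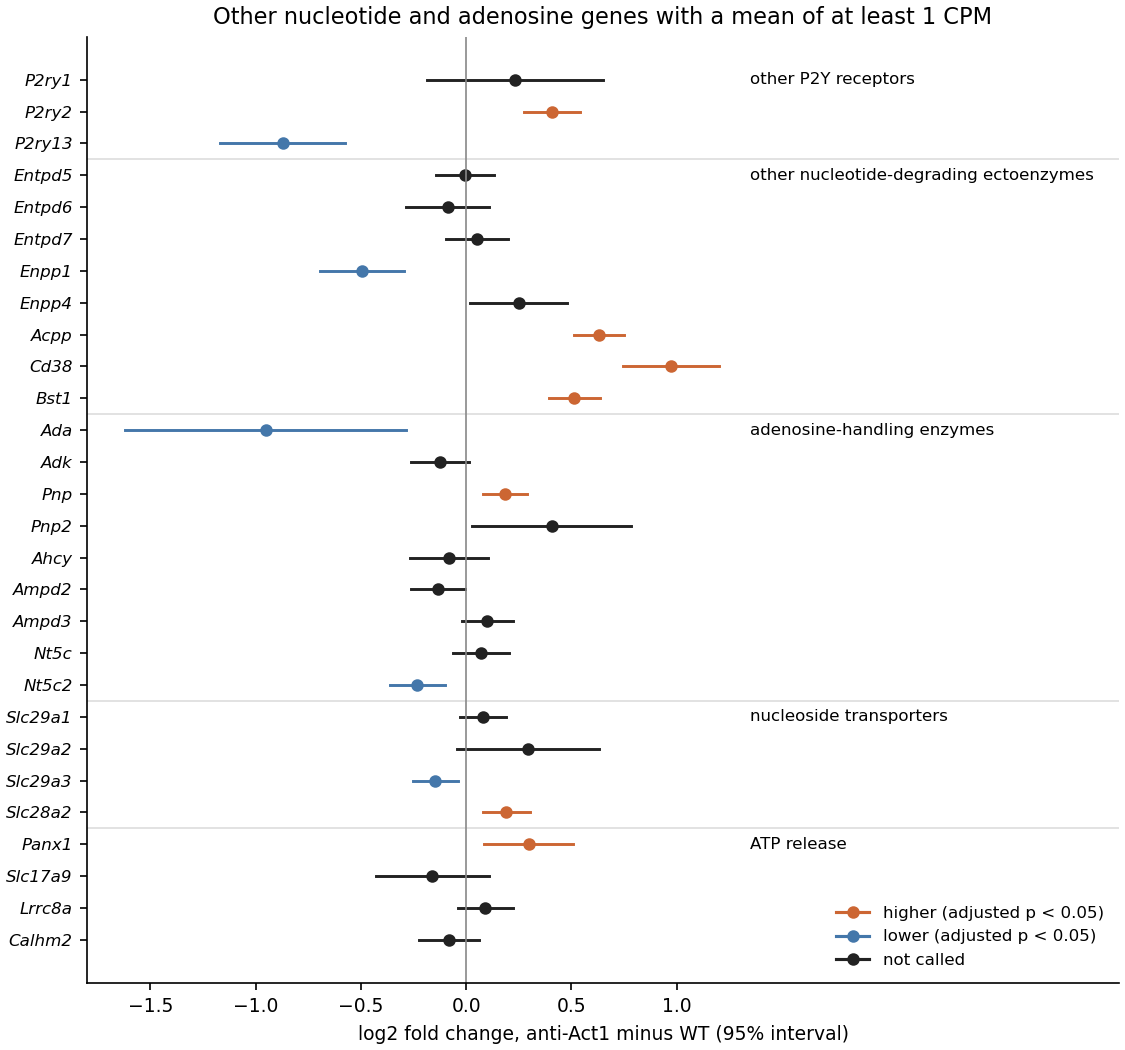
Log2 fold change (anti-Act1 minus WT) with its 95% interval for the 28 tested genes of the wider pathway with a mean of at least 1 CPM, grouped by role, in orange (higher), blue (lower) or black (not called). Cd38 at 0.97 and Acpp at 0.63 stand highest, and Ada at -0.95 and P2ry13 at -0.87 lowest.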

How the data were processed

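Per the study's methods, the authors removed low-quality reads and aligned read pairs with TopHat; the submitters' notes name HTSeq 0.6.1, Bowtie 0.12.2 and the builds mm8 and mm10 with no role given. The authors deposited whole read counts per gene without normalization, and FPKM values whose program is not given in the sources used here. The NEBNext Ultra kit does not mark strand, so overlapping genes cannot be told apart by strand. All 4 libraries entered 1 fit per analysis in edgeR 4.0.16 (R 4.3.3): TMM, filterByExpr, condition only, two-sided quasi-likelihood test, Benjamini-Hochberg over 12494 genes, called at an adjusted p under 0.05. CPM are scaled by TMM. FPKM served to compare genes. Alternatives were DESeq2 1.42.0, limma 3.58.1 on log2(FPKM + 1) or log2(FPKM + 0.1), other filters and scalings, the replicate block and leaving out each library. The fits were run on simulated counts only as a check of the code, with the same spread setting for all genes, which is simpler than in these data. Replicates differed by more than counting noise (chi-square per degree of freedom 10.8 in WT and 7.45 in anti-Act1).

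The genes and lists were chosen with earlier results of these data known. All 10 genes are named whatever their result, with Traf3ip2, the pathway genes called at a mean of at least 1 CPM, relatives of the 10, genes that overlap or neighbour them, and markers beside a result; 1 gene under these terms is not reported here. Coordinates are GRCm38 from GENCODE M21 and RefSeq, since the files hold none. Depth was 55435063 to 75062945 counts, and limits from a count of 0 use 3 counts.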

Additional observations from a re-analysis of the deposited data

How the results depend on the processing

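Over all genes 2586 were called by edgeR, against 1970 on log2(FPKM + 1) with a filter and 1091 without one (582 higher, 509 lower), and 908 were higher on log2(FPKM + 0.1) against 1366. Leaving out 1 library gave 1671 (without anti-Act1 replicate 2; 1712 without anti-Act1 replicate 1) to 2543 calls, 930 to 1335 higher and 741 to 1208 lower. Of the 10 genes 4 were lower under every alternative but log2(FPKM + 1) without a filter (3, without P2ry12), 2 to 3 were higher without 1 library, and 1 was higher on either FPKM scale with a filter of FPKM 1 in 2 libraries, which left out Nt5e and Adora2a. Of the pathway genes 7 were higher in edgeR, 4 on log2(FPKM + 1) without a filter and 4 to 7 without 1 library. There 5 were lower in edgeR, 3 with DESeq2, 3 on each filtered FPKM scale, 1 without a filter and 2 to 4 without 1 library. The log2 fold change of P2rx4 turned to -0.0083 without anti-Act1 replicate 2, in a range up to 0.083 without any 1 library. The cause of these shifts was not tested. The replicate numbers did not pair the libraries (correlation of deviations -0.034). With a replicate block 2406 genes were called (1293 higher, 1113 lower), with 3 of the 10 genes higher and 4 lower. The median log2 fold change of all genes lay between -0.032 and 0.0019 over the alternatives. Low counts limit the precision for Nt5e, Adora2a, Adora3 and P2ry12.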

Other observations

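P2ry12 and P2ry13 lie 5.39 kb apart in a cluster of G protein-coupled receptor genes on chromosome 3, which sits within Med12l on the opposite strand and also holds P2ry14 and Gpr171. Gpr171, a receptor for a neuropeptide, had 3.30 and 3.32 CPM in WT and 2.14 and 1.92 CPM in anti-Act1 and was lower (log2 fold change -0.70 ± 0.19 (SE), edgeR adjusted p = 0.00551). P2ry12, P2ry13 and Gpr171 were thus called lower, whereas P2ry14 stood at 0.16 and was not called. Med12l had 58 and 50 counts in WT and 63 and 21 in anti-Act1 and was not called (-0.12 on the log2 scale, edgeR adjusted p = 0.871). P2ry12 shares 9 of its 2546 exon bases with it. Whether the neighbouring genes move together beyond what single genes do was not tested.

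The share of all tested genes with a log2 fold change at least as large in size was 3.95% for P2ry12, 7.84% for Nt5e, 10.1% for Adora2b, 13.9% for Entpd1, 16.6% for P2rx7 and 21.5% for P2ry6. Entpd1 thus had the smallest adjusted p of the 10 genes with a change of moderate size, at 13616 to 25663 counts per library, and Adora2a the largest change at 68 to 178 counts.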
